A study of Mus musculus with 39 samples.

Results

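Livers of SXR/PXR knockout (KO) mice that had received vehicle were compared with livers of wild-type (WT) mice that had received the same vehicle, by RNA sequencing of total liver RNA. The comparison took 10 of the 39 libraries of the study, 5 from KO livers and 5 from WT livers, and every gene with a mean normalised read count of at least 10 over the 20 liver libraries, which gave 16155 of the 54735 genes listed. All mice were C57BL/6, were 4 weeks old and, in both of these groups, had DMSO as vehicle from the perinatal period on. The other 10 livers came from KO and WT mice (5 each) dosed over the same period with the polychlorinated biphenyl PCB-153, about 54 µg/kg daily. They shared the estimate of the spread between replicates and served as separate livers in which to look at the same genes. The labels give neither the litters, the part of the gene deleted nor whether each library is from its own animal, so the p-values cover the spread among these libraries, which may be technical, and the genotype cannot be told apart from a difference between litters. At the edge of the expression limit, Gm22579 and Sema3c were just inside with means of 10.005 and 10.01, and Gm14292 and Extl1 just outside with 9.991 each.

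SXR, also called PXR and encoded by Nr1i2, is a nuclear receptor of liver and gut that is activated by steroids, bile acids and many drugs. It pairs with the retinoid X receptor on repeats of a short hexamer and switches on genes for oxidation, conjugation and export of foreign compounds. Around puberty the livers of male and female mice also come to differ in many of the same enzyme families, a difference that depends on the rhythm of growth hormone release and on the transcription factor STAT5B.

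KO libraries held 17791725 to 21879551 assigned reads and WT libraries 15232298 to 20136239, so KO libraries were deeper on average (exact two-sided permutation p = 0.0397, where the design allows no p below 0.00794). What that gap contributes to the differences below was not tested; the deposited values are already divided by a size factor for each library. The median standard error of a gene's log2 difference was 0.17. Livers of neither genotype were alike among themselves. The first principal component of the 10 libraries carried 26.3% of the variance. On it KO libraries 1, 3 and 4 lay at -37.9, -27.5 and -41.7. KO libraries 2 and 5 lay at 0.72 and 4.34, beside WT libraries at 9.78 to 30.4. On the second component (20.4%) WT libraries ranged from -24.7 to 38.8 and KO libraries from -32.2 to 18.1. On the third (16.3%) WT libraries ranged from -32.0 to 51.1 and KO libraries from -6.83 to 5.07. The labels do not give the sex; in all 10 livers the Y-linked gene Eif2s3y was counted, at 607 to 697 in KO livers and 582 to 726 in WT livers, and Xist was under the expression limit, at no more than 3.76 in KO livers and 3.73 in WT livers. Summed hepatocyte markers were at 2187710 to 2648960 in KO livers and 2178580 to 2422990 in WT livers, with 11 of 12 members tested and 0 called by limma (4 at an unadjusted p under 0.05, 0 by edgeR and 1 by DESeq2).

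The targeted gene was lower in KO livers but was still counted there. Nr1i2 (chromosome 16, 38248323 to 38294824, GRCm38) had normalised read counts of 768, 449, 969, 759 and 626 in KO livers 1 to 5, against 1706, 1546, 1328, 1781 and 1499 in WT livers 1 to 5. Every KO value was below every WT value. The log2 difference, KO minus WT, was -1.18 ± 0.20 (SE; limma, Benjamini-Hochberg adjusted p = 0.00415). The values are per gene, not per exon, so they do not show which exons the remaining reads cover.

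Limma called 98 genes at an adjusted p under 0.05, which is 0.607% of the genes tested. Of these, 54 rose in KO livers (0.334% of genes tested) and 44 fell (0.272%), and 59 differed by more than 2-fold, 31 of them higher and 28 lower. The KO and WT values did not overlap for 49 of the 54 genes that rose and for 40 of the 44 that fell; over all genes tested, KO libraries lay wholly above WT for 1.39% and wholly below for 1.61%. By annotation 82 of the called genes are protein-coding. The median log2 difference of all genes tested was 0.007. Without KO library 4 limma called 49 genes, without KO library 5 it called 148, and DESeq2 called 266 when run on the recovered reads. The authors' deposited table also lists 266 genes.

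**Figure D1:**
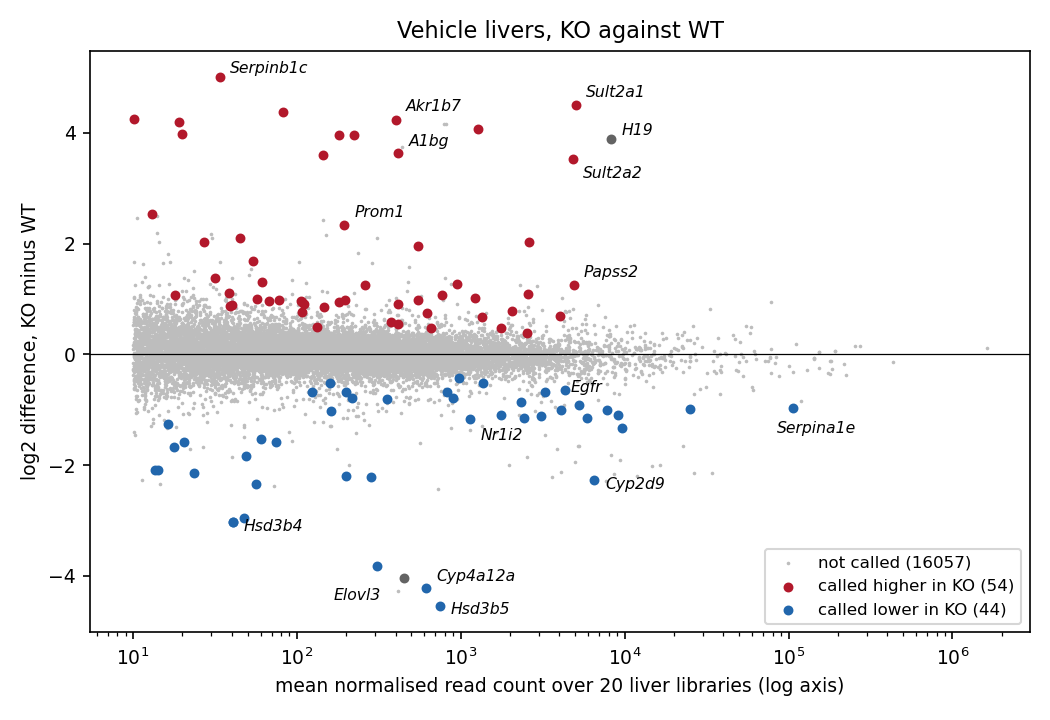
Log2 difference, KO minus WT, of the 16155 genes tested in vehicle livers (vertical axis) against the mean normalised read count over 20 liver libraries (horizontal log axis). The 54 genes called higher are red, the 44 called lower are blue, genes not called are grey, and H19 (3.89) and Elovl3 (-4.03) are drawn dark grey because they were not called. Serpinb1c lies highest at 5.0 and Hsd3b5 lowest at -4.54.

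A set of steroid sulfation genes rose in KO livers. Members of this and the other gene lists were chosen with earlier results of these data known, so list counts and medians are not independent of these data. Of 19 sulfation genes tested (25 listed), 5 rose in KO livers and 0 fell by limma, edgeR or DESeq2, and the median log2 difference of the list was 0.37 beside 0.007 for all genes. The 5 were Papss2 and 4 hydroxysteroid sulfotransferases of the Sult2a cluster on chromosome 7, enzymes that attach sulfate to steroids and bile acids. Sult2a1 (chromosome 7, 13796246 to 13837409) had normalised read counts of 7163, 3242, 6010, 11860 and 1292 in KO livers, against 148, 420, 193, 723 and 40.0 in WT livers. The lowest KO liver, number 5, was above the highest WT liver, number 4. The log2 difference was 4.50 ± 0.73 (SE; limma adjusted p = 0.00229, n = 5 each). Sult2a5 stood at 1839, 1117, 1709, 2804 and 500 in KO livers, against 42.3, 200, 113, 218 and 16.3 in WT livers, a log2 difference of 4.07 ± 0.62 (limma adjusted p = 0.0013). For Sult2a2 the range was 2483 to 10725 in KO livers and 108 to 1489 in WT livers (3.53, limma adjusted p = 0.00457), and for Sult2a4 it was 110 to 410 in KO livers and 0 to 42.7 in WT livers (3.97, limma adjusted p = 0.00733).

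The order of livers was shared by these neighbours. In both genotypes liver 4 had the highest Sult2a1, Sult2a2 and Sult2a5 counts and liver 5 the lowest. The labels do not say that livers of the same number belong together. Not every relative followed. Sult2a8 had counts of 3587 to 9324 in KO livers and 6050 to 9621 in WT livers (-0.50, limma adjusted p = 0.399), Sult2a7 differed by -0.63 (limma adjusted p = 0.637), and Sult2a3 and Sult2a6 were under the expression limit. Papss2, which makes the sulfate donor that these enzymes use, had counts of 7003, 7474, 6256, 8361 and 7024 in KO livers, against 3628, 3360, 2038, 3407 and 3025 in WT livers. Its groups were narrow and well apart, with a log2 difference of 1.25 ± 0.15 (limma adjusted p = 0.000163). The companion enzyme gene Papss1 differed by -0.01.

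All 5 genes tested between 13623967 and 13989607 on chromosome 7 rose, a span drawn from the first to the last called gene. The fifth was the pseudogene Zbed4-ps1 (4.37), which lies within Sult2a5, so that reads of the pair may not be fully separable. The Sult2a genes also share sequence. Of the 50-base words of each gene, the part that another gene also holds was 62.1% for Sult2a2, 34.5% for Sult2a5, 33.2% for Sult2a1 and 25.5% for Sult2a4, so the split of reads among them is uncertain; for Papss2 the share was 0.0%. Sult2a4 lost its call when only the 2 vehicle groups were fitted; Sult2a1, Sult2a2, Sult2a5 and Papss2 were called in all 21 alternatives.

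The 250 bases before the RefSeq start (GRCm38.p6) of Sult2a5 and Sult2a4, which rose together, and of Akr1b7, the other large rise among SXR target genes, are shown because 1 hexamer match stands in each. Capitals mark TGAACT, which is AGTTCA on the other strand, or TGACCT, which is AGGTCA on the other strand. RefSeq starts lie 0, 19 and 28 bases inside the GENCODE gene.
Sult2a5, chr7:13623717-13623966 (plus strand): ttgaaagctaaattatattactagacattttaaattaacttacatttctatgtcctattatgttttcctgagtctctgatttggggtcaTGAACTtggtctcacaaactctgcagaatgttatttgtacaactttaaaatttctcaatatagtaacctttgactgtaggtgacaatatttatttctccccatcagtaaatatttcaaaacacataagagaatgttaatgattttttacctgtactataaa
Sult2a4, chr7:13989589-13989838 (minus strand): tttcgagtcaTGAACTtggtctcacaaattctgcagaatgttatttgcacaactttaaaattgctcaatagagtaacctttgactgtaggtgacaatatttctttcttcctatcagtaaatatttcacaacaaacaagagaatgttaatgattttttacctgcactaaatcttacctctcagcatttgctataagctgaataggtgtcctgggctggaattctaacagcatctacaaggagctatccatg
Akr1b7, chr6:34412112-34412361 (plus strand): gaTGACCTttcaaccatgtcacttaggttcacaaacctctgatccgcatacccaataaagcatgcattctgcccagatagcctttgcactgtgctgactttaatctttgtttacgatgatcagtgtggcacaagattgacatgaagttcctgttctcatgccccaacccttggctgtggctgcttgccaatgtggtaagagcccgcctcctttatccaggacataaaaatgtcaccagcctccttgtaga

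The Sult2a5 and Sult2a4 windows were near copies. With Sult2a4 shifted by 79 bases, 155 of the 171 bases compared were identical (90.6%), and the TGAACT at 161 bases before the Sult2a5 start is then the same stretch as the TGAACT at 240 bases before the Sult2a4 start. Windows for Sult2a1 and Sult2a2 were not used here. Such hexamers are common. AGTTCA was in 11.8% of all 32851 windows and in 7 of 50 windows of genes that rose (14%), and AGGTCA was in 14% of all windows and in 11 of those 50 (22.0%). Among windows of genes that fell, AGTTCA was in 7 of 45 (15.6%) and AGGTCA in 5 of 45 (11.1%). Spaced repeats were sought on both strands, DR3 and DR4 in every combination of these hexamers and ER6 with AGTTCA only. DR3, DR4 and this ER6 were in 0.0122%, 0.0244% and 0.00609% of all windows and in 0 windows of called genes. Forms of ER6 that hold AGGTCA were not counted.

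The list of SXR target genes was mixed and mostly not called. Of 38 tested (39 listed), 4 rose by limma (Akr1b7, Papss2, Sult2a1 and Cyp2c55), 1 fell (Cyp3a59), and the median log2 difference was 0.28. Akr1b7, an aldo-keto reductase that reduces reactive aldehydes (chromosome 6, 34412334 to 34423142), had normalised read counts of 625, 248, 542, 883 and 169 in KO livers, against 19.96, 24.6, 19.6, 31.7 and 13.8 in WT livers. Every KO value was above every WT value, and the log2 difference was 4.24 ± 0.38 (limma adjusted p = 3.94e-06). The pseudogene Gm13857, which overlaps it on the opposite strand, rose by 3.96, and reads of the pair cannot be told apart without the strand. The other aldo-keto reductases of this family did not pass the test: Akr1b10 differed by 0.79 (limma adjusted p = 0.155), Akr1b3 by 0.11 and Akr1b8 by 0.06. Cyp2c55, a P450 that oxidises arachidonic acid, was at 1266 to 1543 in KO livers and 566 to 894 in WT livers (1.03 ± 0.19, limma adjusted p = 0.00798).

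Among Cyp3a genes, the drug-metabolising P450 family most used to report SXR activity, Cyp3a59 fell. It had counts of 1044, 1793, 1279, 1518 and 1676 in KO livers, against 3116, 4449, 2203, 2912 and 3752 in WT livers, with no overlap (-1.15 ± 0.17, limma adjusted p = 0.00124). Of the 50-base words of Cyp3a59, 30% occur in other genes. The pseudogene Cyp3a63-ps, in the same cluster, rose, with 23.8 to 152 in KO livers and 10.6 to 15.8 in WT livers (1.68 ± 0.39, limma adjusted p = 0.0482), a call made in 8 of 21 alternatives. Cyp3a11 had counts of 51835, 109606, 68342, 75464 and 94924 in KO livers, against 96663, 108427, 99373, 85264 and 120386 in WT livers, and did not pass the test (-0.39 ± 0.17, limma adjusted p = 0.356). KO livers 2 and 5 lay within the WT range and KO livers 1, 3 and 4 below it. Cyp2b10, a P450 that responds to CAR, was at 700 to 1299 in KO livers and 408 to 810 in WT livers (0.77, limma adjusted p = 0.2). Cyp1a2, a P450 of the aryl hydrocarbon response, was at 4664 to 9922 in KO livers and 8567 to 12722 in WT livers (-0.70, limma adjusted p = 0.188). The Cyp3a59 promoter window holds AGGTCA at 177 bases and TGACCT at 156 bases before the start, in capitals, and is shown because this gene was the list member that fell.
Cyp3a59, chr5:146079008-146079257 (plus strand): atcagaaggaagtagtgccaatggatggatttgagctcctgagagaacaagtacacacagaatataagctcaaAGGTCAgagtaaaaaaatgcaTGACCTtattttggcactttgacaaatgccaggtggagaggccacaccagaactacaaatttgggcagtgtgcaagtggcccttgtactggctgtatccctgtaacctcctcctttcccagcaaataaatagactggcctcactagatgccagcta

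**Figure D2:**
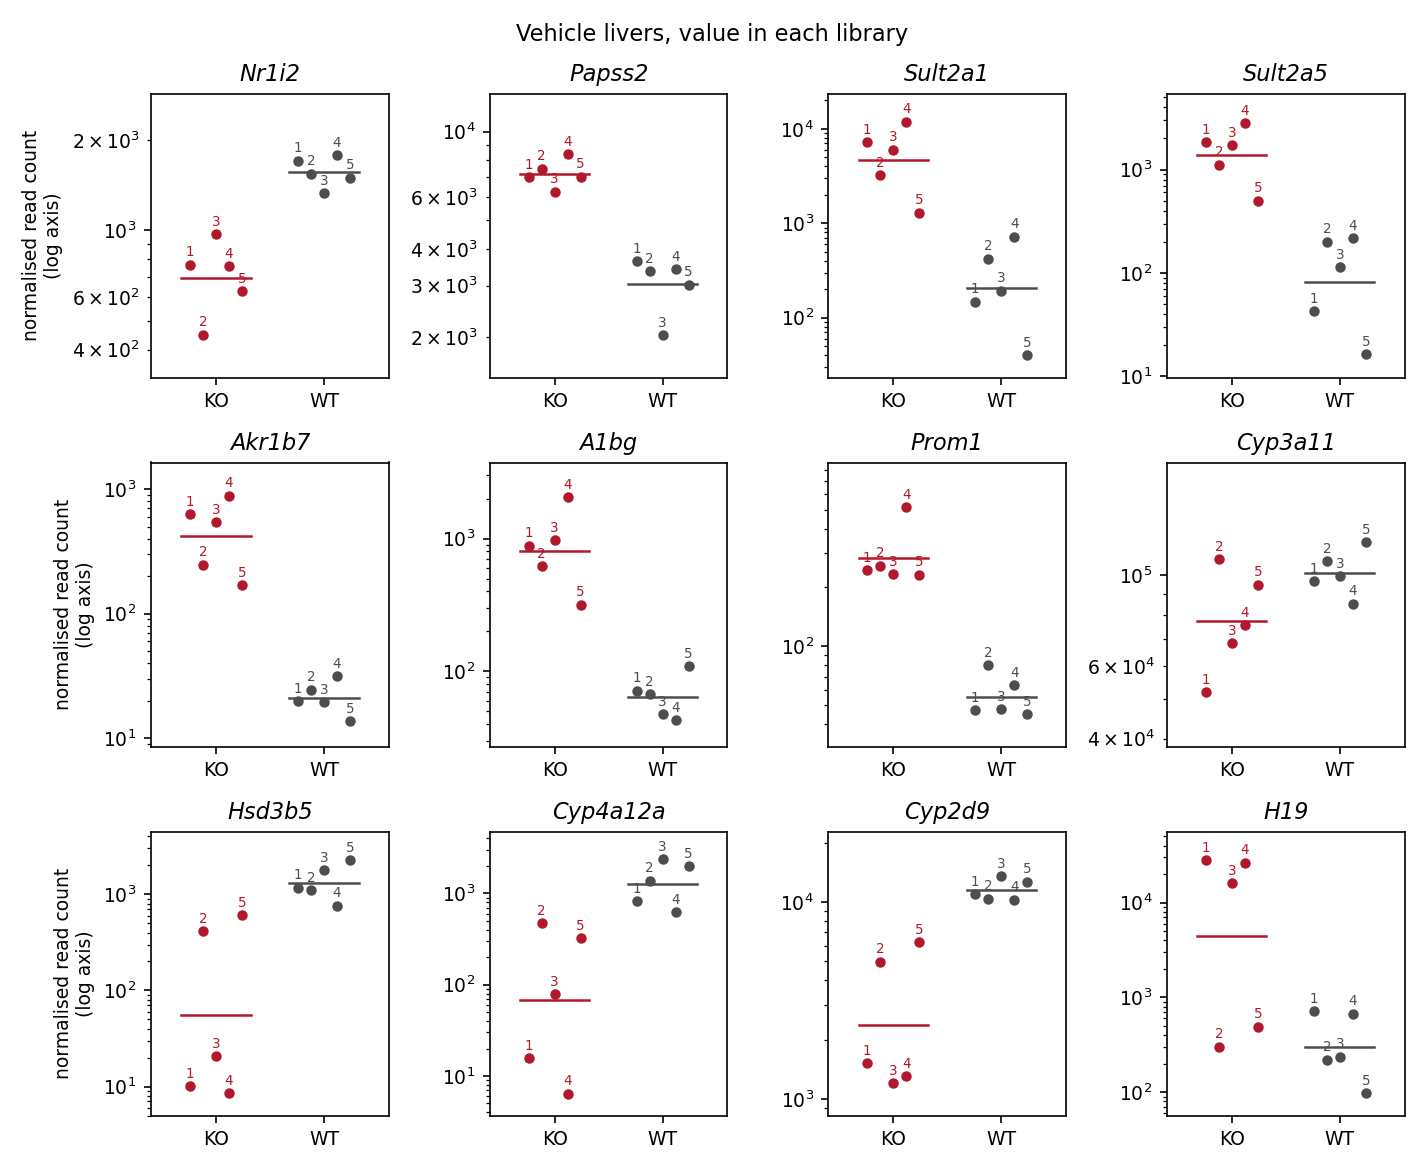
Normalised read counts (vertical log axes) of 12 genes in the 5 KO and 5 WT vehicle livers; points are libraries with their numbers and lines are means of log2(count + 1). KO livers lie wholly above WT livers for Papss2, Sult2a1, Sult2a5, Akr1b7, A1bg and Prom1, and for Hsd3b5, Cyp4a12a, Cyp2d9 and H19 KO livers 2 and 5 stand nearer to WT livers than KO livers 1, 3 and 4.

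Part of the genes that male mouse liver expresses more than female liver fell in KO livers. The list was chosen with earlier results of these data known, so its signs and median are not independent of these data. All 25 members tested (27 listed) had a negative log2 difference, with a median of -1.46 beside 0.007 for all genes, and 11 fell and 0 rose by limma: Cyp2d9, Cspg5, Susd4, Selenbp2, Serpina1e, Hsd3b5, Cyp4a12a, Gstp1, Gstp2, Cyp4a12b and C8b. The count was 7 by edgeR and 11 by DESeq2, but DESeq2 did not call Hsd3b5 and Cyp4a12b and called Cyp7b1 and C6 instead. By limma the count was 5 without KO library 1, 3 or 4 or WT library 2, 3 or 5. Cyp2d9, a P450 with steroid hydroxylase activity, had normalised read counts of 1516, 4969, 1206, 1302 and 6267 in KO livers, against 10920, 10390, 13470, 10268 and 12674 in WT livers. The groups did not overlap (-2.28 ± 0.36, limma adjusted p = 0.00158), and the call held in all 21 alternatives. Hsd3b5, a hydroxysteroid dehydrogenase of adult male liver, had counts of 10.1, 414, 20.8, 8.56 and 607 in KO livers, against 1170, 1111, 1789, 761 and 2266 in WT livers. Here KO livers 1, 3 and 4 had almost none of the transcript, while KO livers 2 and 5 came close to the lowest WT liver, and the log2 difference of -4.54 had a standard error of 0.95 (limma adjusted p = 0.0274). Cyp4a12a, a fatty acid hydroxylase, had the same pattern, with counts of 15.6, 475, 79.0, 6.42 and 323 in KO livers, against 815, 1378, 2363, 627 and 1980 in WT livers (-4.21 ± 0.89, limma adjusted p = 0.0292). Hsd3b5 and Cyp4a12a were each called in fewer alternatives, 11 and 13 of 21, and neither by edgeR; both calls were lost without any 1 of KO libraries 1, 3 or 4.

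Other members moved less but more evenly. Selenbp2, a selenium-binding protein gene, was at 4610 to 6354 in KO livers and 8360 to 19173 in WT livers (-1.33 ± 0.24, limma adjusted p = 0.0058), and 43.9% of its words occur in other genes. Susd4, a complement regulator, was at 28.9 to 59.7 in KO livers and 90.5 to 174 in WT livers (-1.58, limma adjusted p = 0.00491), and Cspg5, a proteoglycan gene, at 1.83 to 10.3 in KO livers and 19.7 to 29.8 in WT livers (-2.09, limma adjusted p = 0.00216). Serpina1e, an abundant protease inhibitor, had counts of 75778 to 91685 in KO livers and 117720 to 250541 in WT livers (-0.97, limma adjusted p = 0.0091). The glutathione transferases Gstp1 and Gstp2 fell by 1.10 and 1.16 on the log2 scale, with 33.7% and 54.3% of their words found in other genes. Beyond the list, Cyp2d12 (-2.22), the pseudogene Cyp2d41-ps (-2.20) and Hsd3b4 (-3.03) fell. Hsd3b4 had the same counts as Gm10681 in all 10 vehicle libraries, 100% of its words occur in other genes, and the pair cannot be told apart. Keg1, a glycine acyltransferase-like gene of kidney and liver, fell too (-1.09 ± 0.24, limma adjusted p = 0.0402), with 827 to 2000 in KO livers and 2043 to 3770 in WT livers.

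Some of the called genes were neighbours. Of the 98 called genes, 37 lay within 500 kb of another called gene, in 15 groups, and 13 of these groups changed in 1 direction only. How many of 98 genes drawn from all those tested would have such a neighbour was not counted. Some groups hold pairs whose reads cannot be told apart, such as Akr1b7 with Gm13857, A1bg with 4930402D18Rik and Hsd3b4 with Gm10681. Each span given here runs from its first to its last called gene, so its ends are called by construction. The Hsd3b span on chromosome 3 (98445675 to 98630252) had 4 of 5 tested genes called lower, among them Hsd3b4 and Gm10681 with the same counts. Hsd3b1, Hsd3b2, Hsd3b3 and Hsd3b6 lie outside this span and were not called. A stretch of Serpina genes on chromosome 12 (103946931 to 104013755) had 3 of 4 called lower. The Cyp2d span on chromosome 15 (82433437 to 82782110) had 3 of 14 called lower. Cyp2d10, Cyp2d11, Cyp2d22 and Cyp2d26 lie outside it and were not called. Paralogs in such clusters share sequence, and 15 called genes had over 30% of their words in other genes.

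STAT5 binds TTCNNNGAA, a motif that reads the same on both strands. It was in 7.02% of all 250-base windows, in 7 of 45 windows of genes that fell (15.6%) and in 3 of 50 windows of genes that rose (6.0%). Windows are shown for Keg1, which fell and holds it at 173 and 107 bases before its start, and for Slc22a26, a transporter gene that rose and holds it at 141 bases. Capitals mark the motif.
Keg1, chr19:12695540-12695789 (plus strand): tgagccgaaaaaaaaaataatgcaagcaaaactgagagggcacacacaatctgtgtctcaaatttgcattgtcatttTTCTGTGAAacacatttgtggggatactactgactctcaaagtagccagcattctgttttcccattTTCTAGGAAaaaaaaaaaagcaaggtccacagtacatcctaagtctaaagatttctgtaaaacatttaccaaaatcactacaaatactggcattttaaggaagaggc
Slc22a26, chr19:7802668-7802917 (minus strand): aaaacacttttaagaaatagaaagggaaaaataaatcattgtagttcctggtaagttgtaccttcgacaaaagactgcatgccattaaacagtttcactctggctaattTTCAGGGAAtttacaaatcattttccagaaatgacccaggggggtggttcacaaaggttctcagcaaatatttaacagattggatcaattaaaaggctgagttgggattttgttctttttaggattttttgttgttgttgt

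The male-type genes also differed among the KO livers. Of the 25 members tested, 24, 15, 21, 23 and 14 lay below all 5 WT values in KO livers 1 to 5, or 96%, 60%, 84%, 92% and 56%, where 14.8% to 18.2% of all genes tested did so in the same livers. The major urinary proteins, pheromone carriers that male liver secretes in bulk, separated the livers further. Their summed normalised read counts were 17407, 325767, 49222, 14026 and 321036 in KO livers, against 150070, 363776, 280340, 164709 and 402205 in WT livers. KO livers 2 and 5 lay within the WT range and KO livers 1, 3 and 4 far below it. All 18 genes of this list had a negative log2 difference (median -1.93), yet limma, edgeR and DESeq2 called 0 of them (14 at an unadjusted p under 0.05). These genes resemble each other closely, so counts of single members are uncertain. Slco1a1, an uptake transporter of male liver, had the same order, with counts of 301, 3635, 605, 203 and 3076 in KO livers, against 3370, 3475, 2333, 2618 and 6087 in WT livers (-2.0, limma adjusted p = 0.183).

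**Figure D3:**
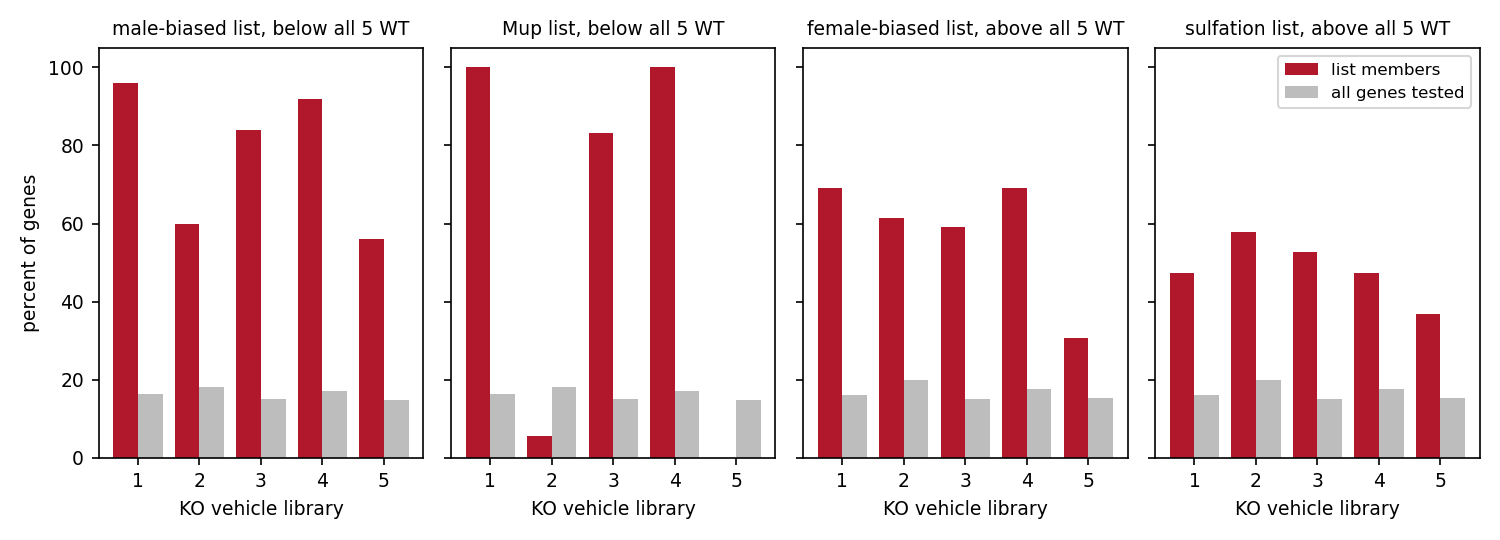
Percent of list members (red) and of all 16155 genes tested (grey) whose value in each KO vehicle library lay beyond all 5 WT vehicle values, below them for the male-biased and Mup lists and above them for the female-biased and sulfation lists. The Mup bars are 100%, 5.56%, 83.3%, 100% and 0% in KO livers 1 to 5, and the sulfation bars stay between 36.8% and 57.9%.

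Of the genes that female mouse liver expresses more, some rose in KO livers and most were not called. Of 39 tested (41 listed), 8 rose, 31 were not called and 0 fell by limma, DESeq2 called 13 higher, and without KO library 1, 3 or 4 or WT library 3 limma called 5. In the limma fit 35 members had a positive log2 difference, and the median was 0.74; Sult2a1 and Sult2a2 are also in the sulfation list. A1bg, a plasma glycoprotein gene of female liver (chromosome 15, 60896859 to 60923012), had normalised read counts of 883, 617, 970, 2054 and 317 in KO livers, against 71.6, 67.2, 47.5, 42.7 and 109 in WT livers. Every KO liver was above every WT liver (3.64 ± 0.48, limma adjusted p = 0.000283). The antisense gene 4930402D18Rik beside it rose by 3.59, and since nothing states whether reads were counted by strand, reads of the pair cannot be told apart. Prom1, a membrane protein of progenitor and duct cells, had counts of 244, 259, 233, 514 and 233 in KO livers, against 47.0, 80.2, 47.5, 63.5 and 45.0 in WT livers (2.33 ± 0.31, limma adjusted p = 0.000335). Cyp17a1, a steroid hydroxylase and lyase, was at 329 to 1328 in KO livers and 83.9 to 431 in WT livers, with overlap (1.95, limma adjusted p = 0.0325). The organic anion transporters Slc22a26 and Slc22a27 rose by 1.27 and 0.98 on the log2 scale (limma adjusted p = 0.00924 and 0.0468). Slc22a27 was called in 8 of 21 alternatives, A1bg and Prom1 in all 21. Cyp2b9 and Cyp2a4, P450 genes of female liver, lay wholly above WT without passing the test (1.25 and 1.23, limma adjusted p = 0.065 and 0.084).

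Of the growth hormone pathway, limma called 0 of 22 genes tested (4 at an unadjusted p under 0.05, 0 by edgeR and 1, Cux2, by DESeq2), and the median log2 difference was -0.02. The receptor gene Ghr was at 4604 to 6246 in KO livers and 4704 to 7402 in WT livers (-0.11), Stat5b at 851 to 1240 in KO livers and 709 to 1158 in WT livers (0.09), and Igf1 at 6785 to 11106 in KO livers and 8510 to 11192 in WT livers (-0.23). Bcl6 and Cux2 encode repressors that mark male and female liver. Bcl6 had counts of 598, 178, 845, 203 and 121 in KO livers, against 1826, 1479, 175, 1445 and 855 in WT livers (-1.60, limma adjusted p = 0.271). Cux2 had counts of 251, 14.2, 276, 356 and 36.6 in KO livers, against 45.8, 19.4, 15.8, 40.5 and 3.75 in WT livers (2.43, limma adjusted p = 0.188), so that KO livers 1, 3 and 4 alone exceeded all WT livers.

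The same 3 KO livers stood out for H19 and Igf2 of the fetal and progenitor liver list, both chosen after their values were seen. H19, an imprinted long noncoding RNA that liver makes before weaning, had normalised read counts of 28246, 302, 16034, 26375 and 493 in KO livers, against 710, 221, 237, 671 and 97.6 in WT livers. Its neighbour Igf2, the fetal insulin-like growth factor, had 149, 7.58, 80.7, 88.8 and 9.39 in KO livers, against 14.1, 10.3, 3.73, 8.76 and 7.51 in WT livers. KO livers 1, 3 and 4 were far above WT and KO livers 2 and 5 within its range. Neither gene passed limma (3.89 ± 1.12, adjusted p = 0.137 and 2.10 ± 0.63, adjusted p = 0.16), whereas both edgeR and DESeq2 called them. Afp, another fetal liver gene, did not follow, with 41.3 to 83.5 in KO livers and 44.6 to 72.4 in WT livers (0.23, limma adjusted p = 0.75). Of 19 genes of this list tested, Prom1 alone rose by limma.

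Lipid genes gave 1 call. Of 37 genes of fatty acid synthesis and lipid droplets tested, Pnpla3, a lipid droplet acyl hydrolase, rose, with counts of 61.3, 59.7, 59.9, 56.7 and 149 in KO livers, against 19.96, 6.46, 17.7, 8.76 and 46.3 in WT livers (2.11, limma adjusted p = 0.0443). The call was lost in 12 of the 20 alternatives that tested it. Scd1, the main fatty acid desaturase of liver, had counts of 138915, 131059, 132369, 145464 and 134946 in KO livers, against 57270, 98380, 43716, 70927 and 101630 in WT livers. These KO values were close together and all above WT, but the difference did not pass the test (0.95 ± 0.32, limma adjusted p = 0.214), where the spread is pooled with the PCB-153 livers. Fasn differed by 0.34 (limma adjusted p = 0.517). Limma called 0 genes of fatty acid oxidation (33 tested), cholesterol synthesis (25 tested) and bile acid synthesis (18 tested). Of the cholesterol synthesis genes, 23 had a positive difference, and the median was 0.20. In these lists 7, 4 and 3 genes were at an unadjusted p under 0.05 by limma, beside 2037 of all 16155 genes tested. EdgeR called 0 in each list, and DESeq2 called 0, 0 and 3. Cyp7a1, the rate-limiting enzyme of bile acid synthesis, was at 419 to 2086 in KO livers and 514 to 1304 in WT livers (0.35, limma adjusted p = 0.837). Cyp8b1, which makes cholic acid, was at 2360 to 3560 in KO livers and 4149 to 6903 in WT livers, without overlap but short of the threshold (-0.95, limma adjusted p = 0.171).

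Other enzyme families held few limma calls. Among 20 Cyp2a, Cyp2b and Cyp2c genes tested limma called Cyp2c55 alone, where DESeq2 called 4 higher and 1 lower (Cyp2c23). Among 15 aldo-keto reductases limma called Akr1b7, and DESeq2 Akr1d1 as well. Among 18 aldehyde and alcohol dehydrogenases limma and DESeq2 each called Aldh1b1, and among 29 transporters each called Slc22a26 and Slc22a27. Of 26 genes of steroid metabolism, Cyp17a1 rose and 2 fell by limma (median -0.11), where DESeq2 called 2 higher and 5 lower. All 8 Cyp2d genes tested had a negative difference (median -0.48) and 2 fell by limma and 3 by DESeq2, and of 13 Cyp4 genes Cyp4a12a and Cyp4a12b fell by limma, where edgeR called 0 and DESeq2 1. Of 22 glutathione transferases, Gstp1 and Gstp2 fell by limma and 0 rose, while 16 members had a positive difference (median 0.19). DESeq2 called 5 of them higher (Gstm4, Gstt3, Gsta4, Gsta1 and Gstp3) beside the same 2 lower. Of 19 UDP-glucuronosyltransferases limma called 0 (2 at an unadjusted p under 0.05, 0 by edgeR and 1 by DESeq2), with a median of 0.08.

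**Figure D4:**
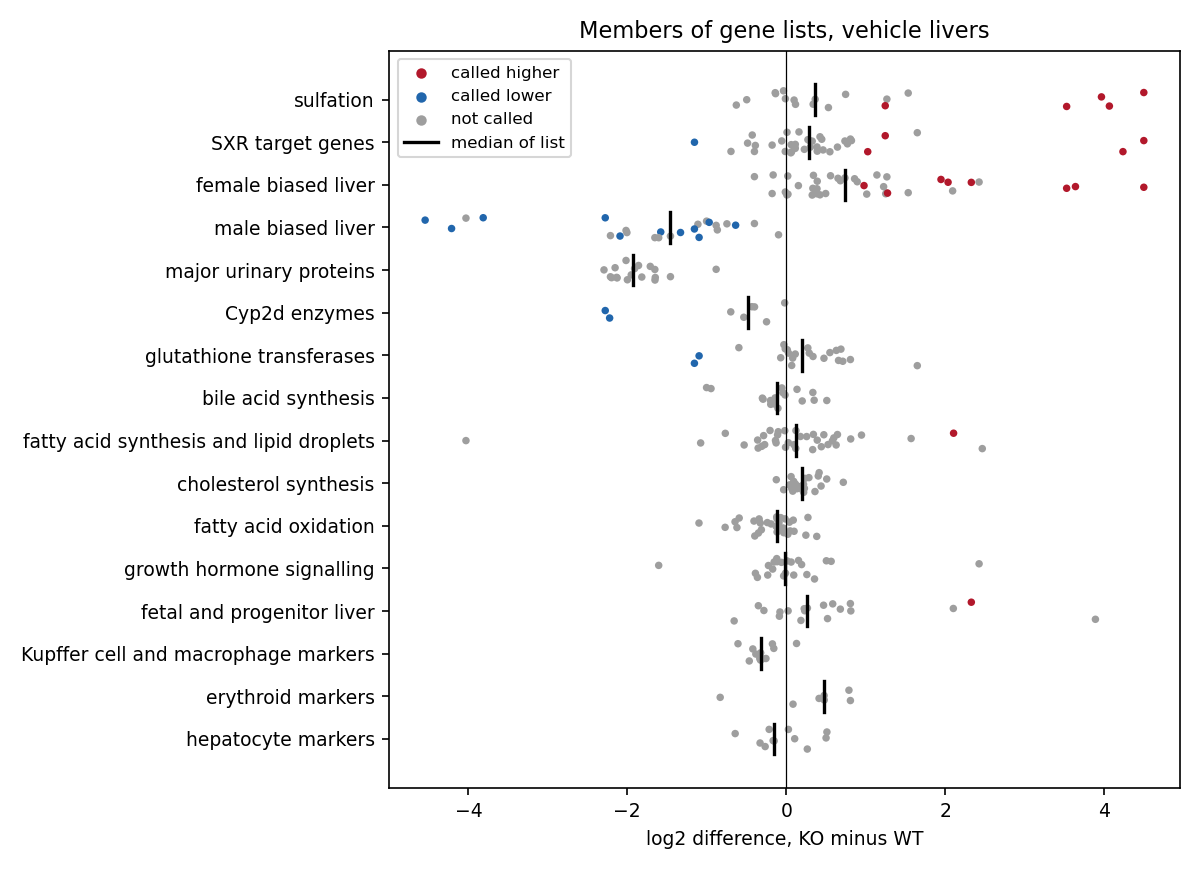
Log2 difference, KO minus WT, of each tested member of 16 gene lists in vehicle livers (horizontal axis); red and blue points were called higher and lower, grey points were not called, and black bars are list medians. Medians range from -1.93 for the major urinary proteins to 0.74 for the female-biased list, and most other lists lie about 0.

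Of 27 nuclear receptor genes tested, Nr1i2 fell and Esr1 rose. Esr1, the estrogen receptor, had counts of 439, 637, 568, 627 and 721 in KO livers, against 335, 357, 200, 294 and 433 in WT livers (0.91 ± 0.19, limma adjusted p = 0.0229), a narrow gap that was not called without KO libraries 3 or 4 or WT libraries 3 or 4. Nr1i3, which encodes the related xenobiotic receptor CAR, was at 2434, 2315, 2186, 1950 and 2461 in KO livers, against 4648, 4101, 3764, 5016 and 3121 in WT livers. All KO values were below all WT values, yet limma did not call it (-0.85 ± 0.24, adjusted p = 0.119), whereas DESeq2 did. Nr1h4, the bile acid receptor FXR, differed by -0.32 (limma adjusted p = 0.25).

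Among called genes chosen after their values were seen, Serpinb1c, a serine protease inhibitor gene, had the largest log2 difference (5.0 ± 0.57, limma adjusted p = 6.09e-05). It had counts of 32.05, 150, 98.9, 81.3 and 121 in KO livers, against 1.17, 3.88, 0.932, 2.19 and 1.25 in WT livers, so the WT livers hold only a few reads each. Cd47, a surface protein that restrains phagocytosis, had close values within each group, with 1767, 1645, 1728, 1647 and 1742 in KO livers, against 1024, 1038, 1030, 1188 and 1070 in WT livers (0.67 ± 0.09, limma adjusted p = 0.000427). Egfr, the epidermal growth factor receptor, was at 3533 to 5425 in KO livers and 6733 to 9881 in WT livers (-0.91 ± 0.14, limma adjusted p = 0.00135). G6pdx, the first enzyme of the pentose phosphate pathway, was at 142 to 184 in KO livers and 71.6 to 115 in WT livers (0.90, limma adjusted p = 0.0129). Aldh1b1, a mitochondrial aldehyde dehydrogenase named as a called list member, rose by 1.09 on the log2 scale. From the rule for the largest changes, the phospholipase gene Pla2g12a rose by 1.25 and the phosphatase gene Ppm1h by 1.31. By the same rule, Aox3, an aldehyde oxidase, fell by 1.00 and Ttc39c by 1.12 on the log2 scale. Chromosome 16, which carries Nr1i2, had 8 called genes besides it among 471 tested, 7 of them within 25 Mb (2.33% of 300), against 0.571% of genes on other chromosomes. Cd47 and Ift57 (2.02) are 2 of the 7 within 25 Mb. Within 10 Mb of Nr1i2, 2 of 122 genes tested were called (1.64%).

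Among markers of other liver cells, limma called Prom1 of the duct cell list alone. DESeq2 also called Spp1 of that list and Alas2 of the erythroid list, both lower; Spp1, a secreted phosphoprotein gene, was at 474 to 651 in KO livers and 667 to 1400 in WT livers (-0.66 by limma). Summed Kupffer cell and macrophage markers ranged from 2668 to 6641 in KO livers and from 4007 to 6332 in WT livers, with 11 of 12 members lower (median -0.32), and erythroid markers from 13279 to 26300 in KO livers and from 7585 to 17946 in WT livers, with 6 of 7 members higher (median 0.48). Limma called 0 of either list (1 and 5 at an unadjusted p under 0.05, 0 by edgeR, and 0 and 1 by DESeq2). Below all WT values lay 2, 1, 0, 11 and 0 of the 12 Kupffer cell and macrophage markers in KO livers 1 to 5. In KO liver 5, 6 of them lay above all WT values. Over all genes tested, 14.8% to 18.2% lay below all WT values in the KO livers, and 15.2% lay above them in KO liver 5. Fewer cells of a type and less RNA per cell cannot be told apart in whole liver. Summed duct cell markers ranged from 1973 to 2218 in KO livers and from 1913 to 2771 in WT livers, while Prom1 was raised in every KO liver. Of 13 pancreatic acinar genes, 11 were under the expression limit and 3 (Cela3b, Cpb1 and Pnlip) were at 0 in all 10 livers, while Amy2a2 and Amy2a5 ranged up to 44.0 and 43.0 in KO livers and up to 2.80 each in WT livers. Cela2a was at 29.97 to 38.8 in KO livers and 20.7 to 29.4 in WT livers, and limma called neither it nor Cela1. Heat shock and immediate early genes were lower in 15 of 16 cases (median -0.38), with summed counts of 17531 to 22734 in KO livers and 22405 to 29635 in WT livers; limma called 0 (3 at an unadjusted p under 0.05), edgeR 1 and DESeq2 2. What these shifts contribute to the calls above was not tested.

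The 10 livers from PCB-153 mice share no library with the vehicle livers. They entered the same fit, which gave each gene 1 standard error for both exposures, and the same expression limit. The 2 sets of calls are therefore not independent. In the PCB-153 livers limma called 1.45% of genes between KO and WT, 0.594% higher and 0.854% lower. Of the 54 genes that rose in vehicle KO livers, 54 had a positive difference there and 34 rose (63.0%), with a median of 1.08 in both exposures. Of the 44 that fell, 44 had a negative difference and 31 fell (70.5%), with a median of -1.13 beside -1.16 in vehicle livers. How many of all genes tested kept their sign was not counted. The targeted gene Nr1i2 differed by -0.69 in PCB-153 livers and was not called there (limma adjusted p = 0.111). A1bg (1.37, limma adjusted p = 0.23), Cyp3a59 (-0.64, limma adjusted p = 0.0765) and Egfr (-0.47, limma adjusted p = 0.119) were not called there either. Sult2a5 had counts of 2528 to 4012 in PCB-153 KO livers and 53.7 to 554 in PCB-153 WT livers, and Papss2 5486 to 7120 in KO and 2061 to 3597 in WT. Hsd3b5 was at 1.82 to 31.8 in all 5 PCB-153 KO livers, without the 2 higher livers of the vehicle group, against 355 to 2494 in PCB-153 WT livers. H19 likewise was at 2576 to 38175 in PCB-153 KO livers and 228 to 2387 in PCB-153 WT livers, without overlap (3.71, limma adjusted p = 0.13).

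The test of the difference between exposures in the KO effect called 0 genes by limma, edgeR and DESeq2. By limma 435 of the 16155 genes tested were at an unadjusted p under 0.05, and the smallest adjusted p was 0.986. These 435 genes are a smaller share than the 0.05 expected if no gene differed between exposures. A1bg is given as an example chosen after its values were seen. Its counts were 540, 302, 255, 590 and 415 in PCB-153 KO livers, against 118, 79.4, 353, 65.8 and 394 in PCB-153 WT livers, and its log2 difference in PCB-153 livers minus that in vehicle livers was -2.27 (unadjusted p = 0.0029). A miss of the threshold does not show that the KO effect was the same in both exposures.

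**Figure D5:**
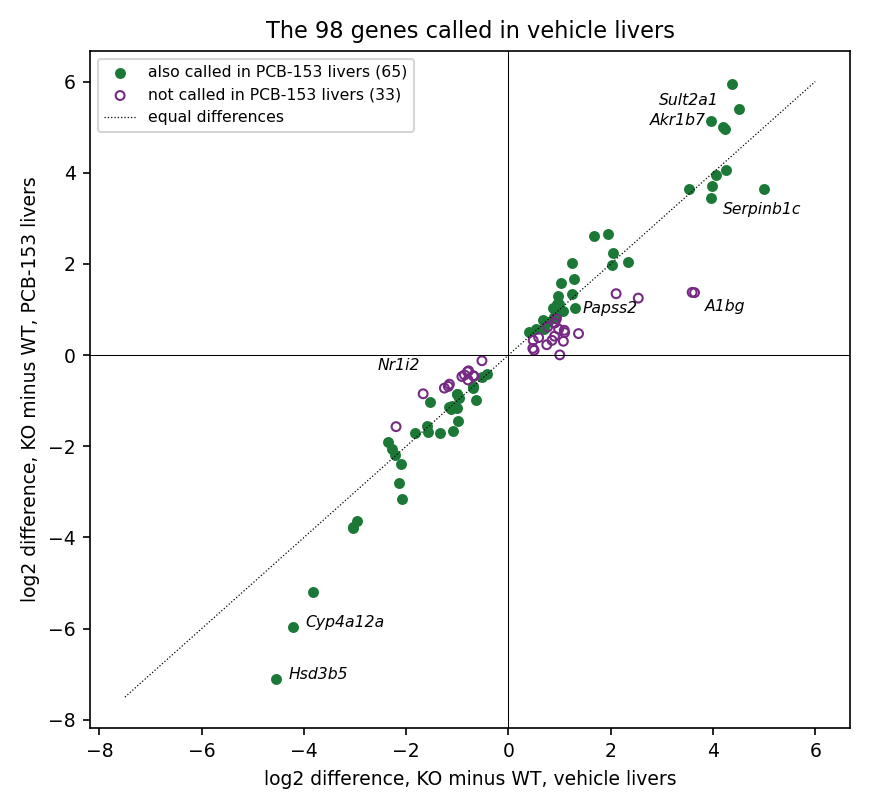
Log2 difference, KO minus WT, of the 98 genes called in vehicle livers, in vehicle livers (horizontal axis) and in PCB-153 livers (vertical axis); filled points were also called in PCB-153 livers (65) and open points were not (33). All 54 genes that rose lie above 0 and all 44 that fell lie below 0 on both axes. A1bg lies under the dotted line of equal differences, at 1.37 in PCB-153 livers and 3.64 in vehicle livers.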

How the data were processed

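Liver RNA of 4-week-old mice was sequenced on a HiSeq4000, per the labels' protocols, with FastQC, STAR 2.6.0, featureCounts, DESeq2 (version given as 3.8) and mm10 named, with no roles, in the submitters' processing notes. The labels name different library kits, so strandedness and the counting mode stay unknown: not given in the sources used. The deposited signal values are normalised read counts, each the reads of a gene divided by 1 size factor per library by the authors: dividing by the value of 1 read gave whole reads within 0.05 for 100% of values, so the depth of each library is known. The authors' deposited table of log2 fold changes and adjusted p-values was used only for its count of genes. In all, 26 symbols turned into dates were restored.

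Genes with a mean of at least 10 over the 20 libraries were fitted with limma 3.58.1 (R 4.3.3; 4 groups, trend) on log2(value + 1), which understates changes of low genes. P-values were adjusted over all 16155 genes by the Benjamini-Hochberg method, and genes under 0.05 were called. The fit was tested on simulated data. Alternatives were other pseudocounts, filters and scalings, array weights, the vehicle groups alone, a replicate block, each library left out, and edgeR 4.0.16 and DESeq2 1.42.0 on recovered reads. Replicates all differed beyond sampling noise. Named genes were Nr1i2, the 15 largest called rises and 15 largest called falls among genes with a mean of at least 50 that are not predicted genes, up to 6 called members of each list, the Sult2a, Akr1b, Cyp4a12, Cyp2d and Hsd3b families, and a fixed set that includes Cyp3a11, Nr1i3, Ghr and Scd1. H19, Igf2, Slco1a1, Elovl3, Cyp2b9, Cyp2a4, Papss1, Gm13857, 4930402D18Rik, Serpinb1c, Cd47, Ift57, Egfr and G6pdx are outside it and were chosen after their values were seen. Members and lists were chosen with earlier results of these data known. Positions are from GENCODE M21 (GRCm38) by symbol, and promoters from RefSeq (GRCm38.p6). Two-sided tests were used throughout. A called gene that the rule would name is not reported here.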

Additional observations from a re-analysis of the deposited data

Results flagged for a closer look

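Of 154 sets of 5 values checked (named genes in KO and in WT vehicle livers), 6 (3.9%) had 1 library far from the other 4, with a gap over 0.71 of the range; chance gives about 1 in 20. Prom1 was at 514 in KO library 4 and 233 to 259 in the other KO libraries. Pnpla3 was at 149 in KO library 5 and 56.7 to 61.3 in the others. Ppm1h was at 23.3 in WT library 3 and 38.8 to 44.6 in the others, and Nr1h4 at 1193 in WT library 5 and 1650 to 1828 in the others. The pseudogene Cyp2d41-ps was at 1145 in WT library 1 and 171 to 292 in the others. Cyp3a63-ps was at 10.6 in WT library 1 and 14.2 to 15.8 in the others.

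In spleens of the same study, which the liver comparison did not use, Nr1i2 had a median normalised read count of 55.4 in the vehicle libraries labelled KO, against 0 to 2.27 in the vehicle libraries labelled WT, the opposite direction to the liver.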

How the results depend on the processing

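The 98 calls (54 higher, 44 lower) became 64 (35 and 29) with a mean of at least 50, 220 (109 and 111) with array weights and 266 (143 and 123) with DESeq2; with the vehicle groups alone they were 67, with 35 higher. The male-biased list, with 11 lower, gave 7 with the vehicle groups alone, with no filter on low values and with edgeR, and the female-biased list, with 8 higher, gave 13 with DESeq2. Leaving out each library gave 49 to 148 calls, 27 to 76 higher and 22 to 72 lower, 5 to 14 in the male-biased list, 5 to 9 in the female-biased list, 5 to 5 in sulfation, 0 to 0 for the difference between exposures, and -1.296 to -1.019 for Nr1i2. The total was 61, 62, 53 and 65 without KO library 3, KO library 1, WT library 3 and WT library 2. The causes were not tested. No named called gene changed sign; the median of all genes, 0.007, lay between -0.00714 and 0.0207 over the settings and so on either side of 0. In all, 21 of 38 named called genes were called in every alternative that tested them. A replicate block gave 106 calls (63 and 43); same-numbered livers correlated at 0.039 to 0.268 and only 2 of 5 KO livers matched their own number best, so the numbers were not taken to pair the animals. With 5 livers a group and a median standard error of 0.17, small differences and those of variable genes may not pass the threshold.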
